A study of Mus musculus with 6 samples.

Results

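The TNF superfamily links trimeric ligands, most of them made at the cell surface and shed by proteases, to receptors that carry cysteine-rich repeats. Receptors with a death domain can start apoptosis or inflammatory signalling, receptors without one recruit TRAF adaptors and feed NF-kB, and decoy receptors bind a ligand without passing on a signal. In inflamed kidney, TNF, TWEAK and TRAIL are among the members studied as regulators of stromal and tubular cells. Here 46 genes of this superfamily were taken by symbol from a table of 34745 genes. They comprised each gene named Tnfsf or Tnfrsf with a number, together with Tnf, Lta, Ltb, Ltbr, Fas, Fasl, Cd40, Cd40lg, Cd27, Cd70, Relt, Ngfr, Eda, Edar and Eda2r. Of these, 18 were ligands and 28 were receptors, and all 46 are annotated as protein-coding.

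To ask how T helper 17 (Th17) cells alter kidney fibroblasts, the study sequenced RNA of primary renal fibroblasts from WT mice in 3 libraries of cells cultured alone and 3 libraries of cells cultured for 24 h below an insert with 0.4 μm pores that held Th17 cells. The T cells had been induced from splenic CD4+ cells with antibodies to CD3 and CD28, IL-1β, IL-6, IL-23 and an antibody to IFN-γ. Cocultured cells were thus exposed to whatever crossed the insert, and not to a single cytokine. Neither the strain of the kidney donors, nor an empty insert over the lone cells, nor separate cultures or animals behind the libraries is given by the labels. SD, SE and p therefore measure the spread between these libraries, which may be technical.

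Library totals lay between 12050529 and 13209581 fragments, of which 12349 to 13674 belonged to the 46 genes, and 3 fragments were worth 0.223 to 0.254 CPM, the unit of normalised abundance used below (counts scaled to the TMM-adjusted library size). Cocultured replicate 3 stood somewhat apart, with a chi-square statistic per gene of 14.0 and 15.2 against the other cocultured libraries, which differed from each other by 8.50. Where leaving it out changed a call or the sign of a fold change below, the value without it is given. All 10 fibroblast markers examined were detected in each library, from 10974 to 202700 counts for Col1a1, Col1a2 and Col3a1 down to 38 to 99 counts for Lum. Of the 10, 8 fell and 1 rose at an adjusted p under 0.05, by which 17.1% of all genes tested were higher and 20% lower. The sum of the 10 went from between 34084 and 35969 CPM alone to between 14238 and 15938 CPM in coculture. Most of that sum was Col1a1, Col1a2 and Col3a1. Their means were 15072, 12462 and 4364 CPM alone and 6228, 4621 and 961 CPM in coculture. The marker that rose was Dcn, from 504 to 1427 CPM on average. Of 19 T cell markers, 14 had at most 3 counts in every library, and Cd3d, Il17a and Il17f were at 0 throughout, but the other 5 included 3 that could be tested. Trac had 20 to 41 counts and was not called, while Lck fell from 49, 68 and 59 to 33, 34 and 23 counts and Cd6 from 28, 25 and 14 to 0, 8 and 2 counts. The 19 genes summed to between 9.70 and 11.3 CPM alone and between 5.63 and 6.02 CPM in coculture. Macrophage and dendritic cell markers were low, and 4 of the 5 that could be tested fell: the 15 genes summed to between 57.9 and 60.8 CPM in lone cells and between 20.3 and 21.1 CPM in cocultured cells, with 71, 47 and 55 counts of Adgre1 against 0 in each cocultured library, and with Itgax and Ccr2 at 0 in all 6. B cell, endothelial and epithelial markers summed to at most 16.0, 7.52 and 21.05 CPM alone and to at most 2.08, 2.75 and 4.56 CPM in coculture. Many TNF ligands are also made by myeloid cells, and the part of such cells in the ligand values was not tested. In bulk RNA, fewer cells of a type and less RNA per cell cannot be told apart.

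Promoters are shown first for the members that changed by more than 2-fold and had an entry in the reference table, because these transcripts carry most of the change described below. They belong to 5 ligands that fell, the receptor Tnfrsf21 that rose and the receptor Ngfr that fell. Tnfrsf9, a receptor with a smaller rise, was added after its window had been seen, as a member that rose and held an NF-kB match. Each is the RefSeq window on GRCm38.p6 from 250 bases before to 50 bases after a transcription start, written 5′ to 3′ on the strand of the gene. Capitals mark matches, on either strand, to the NF-kB consensus, to the interferon-response core (GAAA repeated after a gap of 2 bases) or to the AP-1 site TGANTCA.
Tnfsf8 promoter, chr4:63861235-63861534, minus strand: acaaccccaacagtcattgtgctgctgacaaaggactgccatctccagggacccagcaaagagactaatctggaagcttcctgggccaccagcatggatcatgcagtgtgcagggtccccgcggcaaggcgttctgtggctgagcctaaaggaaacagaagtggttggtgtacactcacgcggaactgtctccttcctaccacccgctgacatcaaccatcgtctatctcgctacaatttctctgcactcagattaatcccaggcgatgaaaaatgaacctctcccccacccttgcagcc
Tnfsf15 promoter, chr4:63745010-63745309, minus strand: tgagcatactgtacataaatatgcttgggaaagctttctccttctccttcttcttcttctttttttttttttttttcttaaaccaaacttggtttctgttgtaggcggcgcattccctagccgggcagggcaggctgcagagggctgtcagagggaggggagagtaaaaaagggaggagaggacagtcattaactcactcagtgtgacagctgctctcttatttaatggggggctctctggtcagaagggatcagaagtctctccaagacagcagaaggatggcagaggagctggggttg
Tnfsf10 promoter, chr3:27316827-27317126, plus strand: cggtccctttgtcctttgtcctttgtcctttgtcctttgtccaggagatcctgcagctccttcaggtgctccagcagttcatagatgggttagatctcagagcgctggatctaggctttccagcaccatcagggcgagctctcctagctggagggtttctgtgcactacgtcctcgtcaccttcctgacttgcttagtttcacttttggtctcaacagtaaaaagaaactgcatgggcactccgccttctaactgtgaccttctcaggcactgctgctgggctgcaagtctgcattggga
Tnf promoter, chr17:35201958-35202257, minus strand: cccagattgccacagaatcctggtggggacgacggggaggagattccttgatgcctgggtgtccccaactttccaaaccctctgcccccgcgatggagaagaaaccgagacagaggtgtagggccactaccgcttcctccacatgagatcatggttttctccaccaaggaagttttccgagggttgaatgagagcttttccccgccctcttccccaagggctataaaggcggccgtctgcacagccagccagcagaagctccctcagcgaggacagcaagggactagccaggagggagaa
Tnfsf13b promoter, chr8:10006383-10006682, plus strand: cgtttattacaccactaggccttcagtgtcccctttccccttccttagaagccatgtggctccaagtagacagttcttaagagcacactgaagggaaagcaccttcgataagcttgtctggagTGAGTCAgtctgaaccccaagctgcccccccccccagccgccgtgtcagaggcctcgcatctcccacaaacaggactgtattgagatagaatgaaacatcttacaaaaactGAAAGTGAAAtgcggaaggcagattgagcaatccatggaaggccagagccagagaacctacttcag
Tnfrsf21 promoter, chr17:43016305-43016604, plus strand: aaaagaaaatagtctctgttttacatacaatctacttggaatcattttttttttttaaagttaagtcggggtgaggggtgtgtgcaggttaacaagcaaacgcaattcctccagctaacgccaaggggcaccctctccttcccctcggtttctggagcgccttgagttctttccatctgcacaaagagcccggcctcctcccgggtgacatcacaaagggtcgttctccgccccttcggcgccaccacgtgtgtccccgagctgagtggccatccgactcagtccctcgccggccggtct
Ngfr promoter, chr11:95587649-95587948, minus strand: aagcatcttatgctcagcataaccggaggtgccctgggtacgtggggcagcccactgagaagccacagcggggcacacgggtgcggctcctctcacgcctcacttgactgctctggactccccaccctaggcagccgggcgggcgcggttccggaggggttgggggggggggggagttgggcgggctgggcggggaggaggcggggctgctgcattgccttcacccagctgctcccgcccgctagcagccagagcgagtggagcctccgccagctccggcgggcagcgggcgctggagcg
Tnfrsf9 promoter, chr4:150927749-150928048, plus strand: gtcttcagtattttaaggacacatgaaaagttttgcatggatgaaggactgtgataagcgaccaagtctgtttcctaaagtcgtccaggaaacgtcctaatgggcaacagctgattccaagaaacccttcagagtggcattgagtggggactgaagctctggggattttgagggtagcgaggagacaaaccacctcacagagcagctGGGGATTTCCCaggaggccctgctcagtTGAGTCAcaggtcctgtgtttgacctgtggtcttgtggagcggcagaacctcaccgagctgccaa
In all, 40 windows were found for 36 of the 46 genes. The interferon-response core occurred in 4 of the 40 windows (10%) and in 3.44% of all 32851 windows. The 4 genes were Tnfrsf14 and Tnfsf13b, which fell, Tnfrsf1b, which was not called, and Tnfrsf17, which had no reads. The NF-kB consensus was present in 4 windows (of Ltb, Tnfrsf25, Tnfrsf8 and Tnfrsf9), or 10% against 8.46% of all windows. The AP-1 site was present in 7 windows, or 17.5% against 7.81%. These 7 belong to 6 genes, because 1 site of Tnfsf13b lies in both of its windows. In Tnfrsf9 a pair of overlapping NF-kB matches and an AP-1 match stood 43 to 9 bases upstream of this start, and the window of its other start, chr4:150919905-150920204, held none. Both windows of Tnfrsf9 lie inside the gene, whose span begins at 150914562, so neither covers that first base. Tnfsf13b also has another window, chr8:10006217-10006516, which overlaps the window shown and holds the same AP-1 match. It ends before the interferon-response core. The windows of Tnfsf8, Tnfsf15, Tnfsf10, Tnf, Tnfrsf21 and Ngfr held none of the 3 patterns, which says only that these letters are not in these windows. The matches describe sequence and are not sites of measured binding.

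With Th17 cells, most ligands that could be tested fell, while receptors moved both ways and by less. Of the 46 genes, 28 had enough counts to be tested, 9 ligands and 19 receptors. At an adjusted p under 0.05 (edgeR quasi-likelihood, adjusted over all 13088 genes tested), 8 members were higher and 8 lower with Th17 cells. Among all genes tested 17.1% were higher and 20% lower by the same rule, beside 28.6% of the tested members in each direction. When the study's threshold of more than 2-fold was added, 3 members were higher (10.7%, background 3.87%) and 6 lower (21.4%, background 7.78%). The groups did not overlap for 17 of the 28 members, or 60.7%, with 50.4% among all genes tested. The median log2 fold change of the members was 0.02, beside 0.0038 over all genes, whereas the median of its absolute size was 0.75 beside 0.26. Of the 9 tested ligands 5 fell, 1 rose and 3 were not called, with a median of −1.18. Of the 19 tested receptors 7 rose, 3 fell and 9 were not called, with a median of 0.04.

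**Figure D1:**
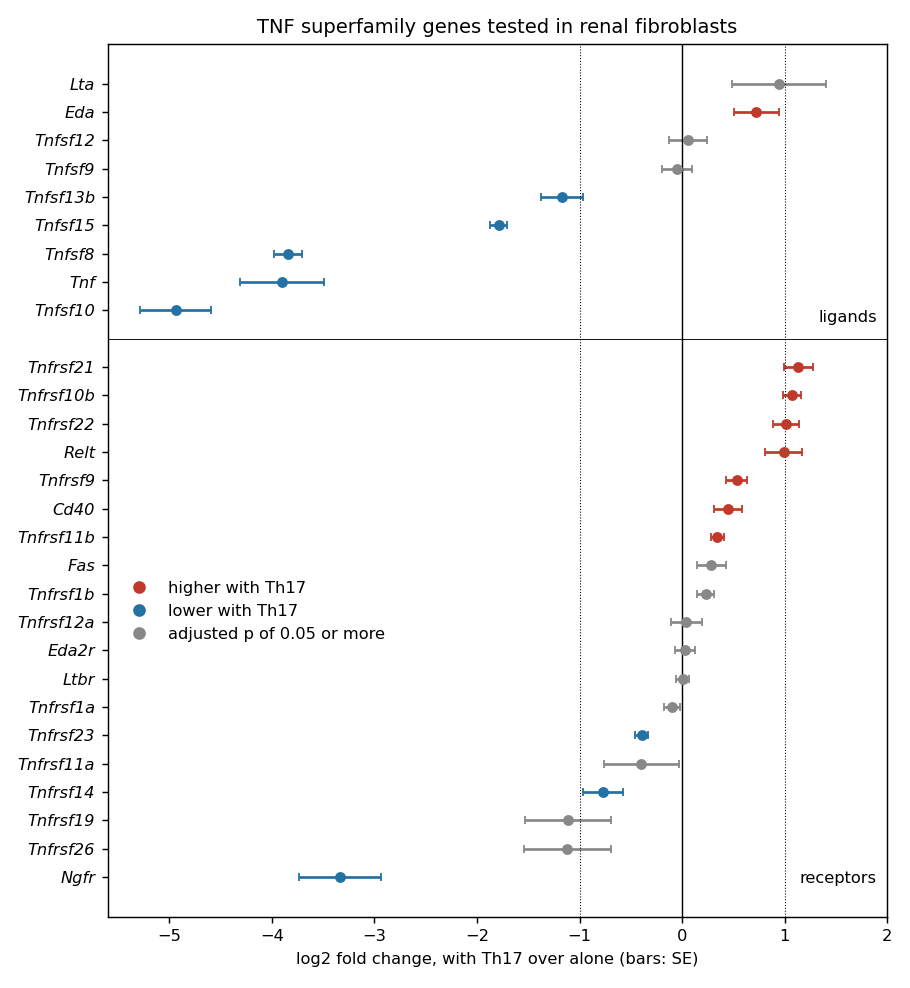
Log2 fold change (cocultured over lone fibroblasts, horizontal axis) of the 28 tested TNF superfamily genes, 9 ligands above and 19 receptors below, with bars for the SE. Red and blue points passed an adjusted p of 0.05 as higher or lower, grey points did not, and dotted lines mark a 2-fold change; the 5 blue ligands lie between −4.94 and −1.18, while all receptors except Ngfr (−3.34) lie between −1.12 and 1.13.

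Transcripts of TNF ligands were dominated by a neighbouring pair of genes in lone fibroblasts, and these lost most of their expression beside Th17 cells. Levels of different genes are compared here only as FPKM, which the authors scaled to gene length. The 18 ligands summed to 54.8, 51.5 and 52.7 FPKM in the lone libraries and to 23.3, 26.7 and 22.7 FPKM in the cocultured libraries, so the groups were far apart. Tnfsf8 and Tnfsf15 together made up 55.9%, 57.4% and 56.3% of that sum in lone cells and between 20.6% and 25.3% in cocultured cells. The remaining ligands summed to between 21.9 and 24.2 FPKM alone and between 16.9 and 21.2 FPKM with Th17 cells, a much smaller shift. In lone cells the order by mean FPKM was Tnfsf8 (16.0), Tnfsf15 (13.9), Tnfsf9 (9.21), Tnfsf12 (5.03), Tnfsf13b (4.73), Tnfsf10 (1.92) and Tnf (0.899). Only Tnfsf12 and Tnfsf13b overlapped between libraries in that order. It rests on the gene lengths behind FPKM. By counts, Tnfsf10 (123 to 162 in a lone library) stood above Tnfsf13b (53 to 60). With Th17 cells the order became Tnfsf9 (9.31), Tnfsf12 (5.46), Tnfsf15 (4.21), Tnfsf13b (2.18) and Tnfsf8 (1.16), and of these only Tnfsf8 overlapped the gene ranked next to it, Lta (0.886).

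**Figure D2:**
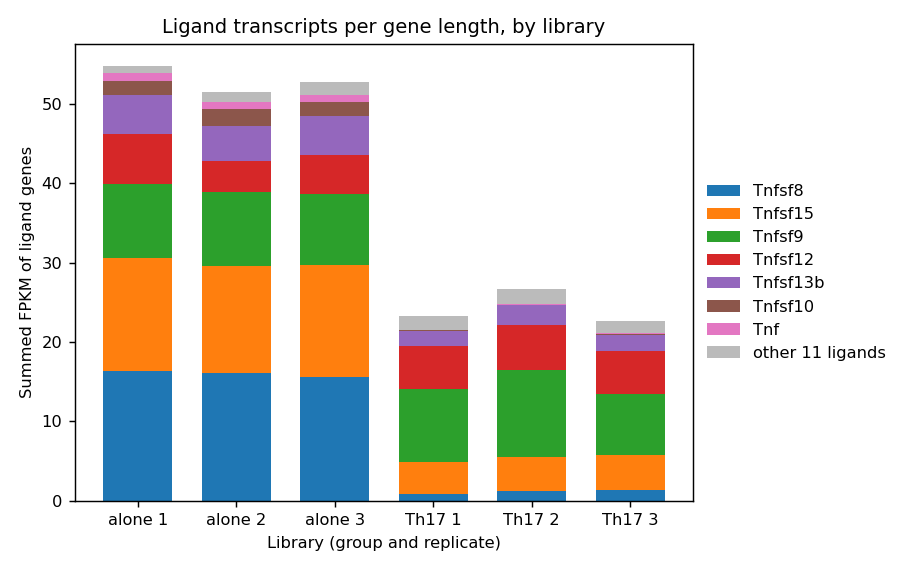
Summed FPKM of the 18 ligand genes (vertical axis) in each of the 6 libraries (horizontal axis), stacked by gene. The 3 lone libraries reach between 51.5 and 54.8 FPKM and the 3 cocultured libraries between 22.7 and 26.7 FPKM, and the blue and orange segments (Tnfsf8 and Tnfsf15) account for most of the loss.

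Tnfsf8, the ligand of the lymphocyte receptor CD30, showed a marked decrease. Tnfsf8 (ENSMUSG00000028362, chromosome 4, 63831308 to 63861347, minus strand) was read 819, 793 and 716 times alone and 45, 59 and 66 times after coculture. Its level fell from 62.2 ± 1.55 to 4.33 ± 0.877 CPM (mean ± SD over 3 libraries), with a log2 fold change of −3.84 (adjusted p = 8.72e-08 by edgeR, SE 0.13). Tnfsf15, which encodes TL1A, a cytokine that costimulates T cells through DR3, lies 86.2 kb away on the same strand with no protein-coding gene in between. Tnfsf15 (ENSMUSG00000050395, chromosome 4, 63727084 to 63745113) had 633, 583 and 566 counts alone and 176, 179 and 187 counts with Th17 cells. It fell from 47.7 ± 1.54 to 13.8 ± 0.616 CPM, a log2 fold change of −1.79 (adjusted p = 4.94e-07 by edgeR, SE 0.09). Both genes were lower in every cocultured library than in any lone library, but by unequal amounts. The FPKM ratio of Tnfsf8 to Tnfsf15, which does not depend on library scaling, was 1.14, 1.20 and 1.11 alone and 0.225, 0.290 and 0.310 in coculture. A two-sided exact permutation test gave p = 0.10, the smallest that 3 against 3 libraries allows, and 0.12 adjusted over 6 ratios. This ratio was chosen after the values were seen, so its p is only descriptive. The receptors of the pair were scarcely transcribed in the same cells, with 2, 0 and 0 counts of Tnfrsf8 alone and 5, 6 and 9 in coculture, and at most 4 counts of Tnfrsf25 in each library.

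Tnfsf10, or TRAIL, which induces apoptosis through death receptors and is an interferon-induced gene in many cells, was close to undetected in coculture. Tnfsf10 (ENSMUSG00000039304, chromosome 3, 27317028 to 27342427) had 134, 162 and 123 counts alone and 5, 1 and 8 counts with Th17 cells. Its log2 fold change was −4.94 (adjusted p = 5.73e-06 by edgeR, SE 0.35), and the ratio of the summed counts was 31.5 (95% exact interval 18.6 to 58.1, counting error only). Tnf itself, the cytokine for which the family is named, was weakly expressed and also fell. Tnf (ENSMUSG00000024401, chromosome 17, 35199381 to 35202007) had 41, 34 and 30 counts alone and 1, 2 and 4 counts in coculture, with a log2 fold change of −3.91 (adjusted p = 8.26e-05 by edgeR, SE 0.41). The summed counts of Tnf differed 15.8-fold (95% exact interval 7.40 to 40.2, counting error only). Every cocultured library lay below every lone library for both genes, at levels where a few reads decide the size of the fold. Without cocultured replicate 3 the log2 fold changes were −5.55 for Tnfsf10 and −4.50 for Tnf. With limma on log2(FPKM + 1), whose pseudocount shrinks low genes by construction, they were −1.46 and −0.84.

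Tnfsf13b encodes BAFF, a survival factor of B cells that interferons can induce. Tnfsf13b (ENSMUSG00000031497, chromosome 8, 10006843 to 10035441) had 60, 53 and 55 counts alone and 24, 30 and 24 counts in coculture, with no overlap. It fell from 4.50 ± 0.269 to 1.99 ± 0.319 CPM (log2 fold change −1.18, adjusted p = 0.00183 by edgeR, SE 0.20). It overlaps Gm44789 on the opposite strand, and use of strand in counting was not given in the sources used here. The known receptors of BAFF, Tnfrsf13b, Tnfrsf13c and Tnfrsf17, had at most 5 counts in a library.

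Eda, the signal that shapes hair, teeth and glands through Edar, was the ligand that rose. Eda (ENSMUSG00000059327, chromosome X, 99975606 to 100400762) had 30, 41 and 35 counts alone and 74, 50 and 61 counts with Th17 cells (log2 fold change 0.72, adjusted p = 0.0272 by edgeR, SE 0.22). The groups did not overlap, but the call was fragile. It was lost under 6 of 15 alternatives, among them when lone replicate 1 (adjusted p = 0.0973), lone replicate 3 (0.0641) or cocultured replicate 1 (0.0966) was left out, and also with DESeq2 (0.0589) and limma on log2(FPKM + 1) (0.0577). Edar had 1 count in all, whereas Eda2r, the receptor of the Eda isoform A2, was expressed at 51.8 ± 5.04 CPM alone and 52.8 ± 4.56 CPM in coculture. No difference was detected for Eda2r (log2 fold change 0.03, 95% interval −0.19 to 0.25, and −0.03 without cocultured replicate 3).

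The remaining 3 tested ligands were not called. Tnfsf9, the ligand of CD137 on T cells, had 150, 149 and 134 counts alone and 149, 169 and 122 counts with Th17 cells (log2 fold change −0.05, 95% interval −0.38 to 0.29), and the value was 0.07 without cocultured replicate 3. Tnfsf12, which encodes TWEAK, had 134, 80 and 94 counts alone and 113, 113 and 110 counts in coculture (log2 fold change 0.05, 95% interval −0.36 to 0.47). Lta, the gene of lymphotoxin alpha beside Tnf, held only 5 to 22 counts and was not called, at 0.95 (95% interval −0.08 to 1.98, edgeR adjusted p = 0.137). In Tnfsf12, 46.8% of transcript stretches of 50 bases also occur in the read-through gene Tnfsfm13, and in Tnfsf9 11.5% occur in Gm11110 on the other strand, so their counts are uncertain. Of the 9 untested ligands, Cd40lg, Cd70 and Tnfsf14 had no count in any library, Fasl had 1, Ltb 4 and Tnfsf4 5 in total. Tnfsf11 (RANKL), Tnfsf18 and Tnfsf13 (APRIL) reached at most 7, 6 and 15 counts in a library. Cd40lg and Fasl, ligands typical of activated T cells, were therefore at or near 0 also in the cells cultured below Th17 cells.

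**Figure D3:**
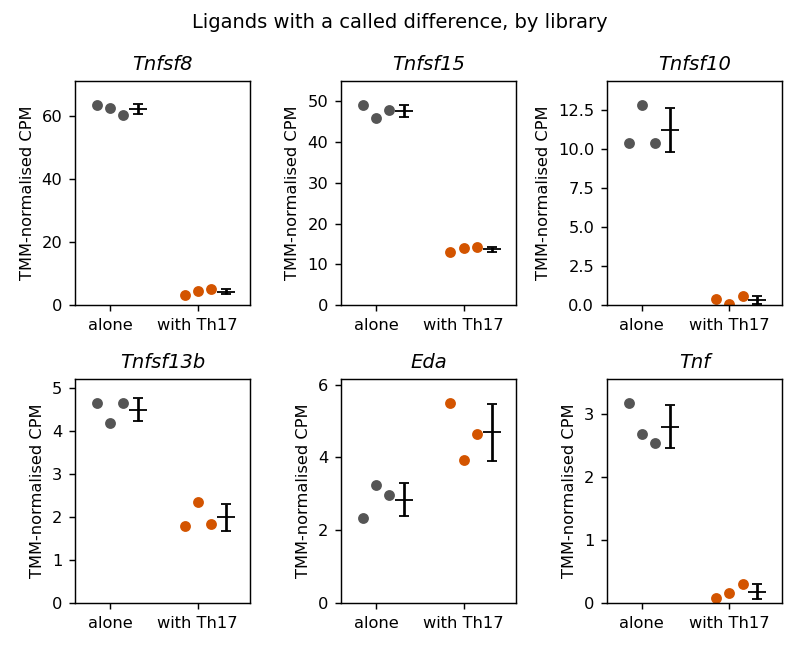
TMM-normalised CPM (vertical axes, each starting at 0) of the 6 ligands with a called difference, for 3 lone libraries (grey) and 3 cocultured libraries (orange), with the mean and SD beside the points. The groups do not overlap in any panel; Tnfsf8 goes from 62.2 to 4.33 CPM on average, and Eda is the gene that rises, from 2.84 to 4.69 CPM.

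Receptor transcripts were more abundant than ligand transcripts and changed less. The 28 receptors summed to 341.8, 350.4 and 357.6 FPKM alone and to 371.8, 383.0 and 437.1 FPKM with Th17 cells. Tnfrsf12a (Fn14), the receptor of TWEAK, alone provided 42.0% of that sum in lone and 39.4% in cocultured cells. It was followed in lone cells by Ltbr (37.3 FPKM), Tnfrsf1a (34.6), Tnfrsf11b (30.2), Tnfrsf23 (25.8) and Tnfrsf1b (23.6), and of these only Tnfrsf23 and Tnfrsf1b overlapped between libraries. With a limit of 1 FPKM on the group mean, 15 receptors and 6 ligands were expressed in lone cells and 15 receptors and 5 ligands in cocultured cells. Among 27 listed ligand and receptor pairs, both partners reached 1 FPKM in 4 pairs in lone cells and in 2 in coculture. The 2 that remained were Tnfsf9 with Tnfrsf9 and Tnfsf12 with Tnfrsf12a. The others were the pairs of Tnfsf10 with Tnfrsf10b and with Tnfrsf11b, in which the ligand dropped below the limit. The list did not pair Tnfsf10 with its decoys Tnfrsf22 and Tnfrsf23. In lone cells those pairs reached the limit too (Tnfsf10 1.92, Tnfrsf22 1.46 and Tnfrsf23 25.8 FPKM).

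Among receptors with a death domain, Tnfrsf10b and Tnfrsf21 rose and Ngfr fell. Tnfrsf10b, the death receptor of TRAIL in mice (ENSMUSG00000022074, chromosome 14, 69767472 to 69784403), had 366, 418 and 389 counts alone and 938, 838 and 819 counts in coculture. It rose from 31.4 ± 2.63 to 66.0 ± 3.72 CPM (log2 fold change 1.07, adjusted p = 1.71e-05 by edgeR, SE 0.09). Tnfrsf21, or DR6, a death receptor studied in neurons and lymphocytes (ENSMUSG00000023915, chromosome 17, 43016555 to 43089188), had 117, 94 and 101 counts alone and 228, 266 and 226 counts with Th17 cells. It rose from 8.35 ± 0.844 to 18.3 ± 2.21 CPM (log2 fold change 1.13, adjusted p = 0.0002 by edgeR, SE 0.14). For both genes every cocultured library exceeded every lone one by a wide margin. Without lone replicate 1 the change of Tnfrsf10b was 0.998, just under 2-fold. Ngfr, the low-affinity neurotrophin receptor (ENSMUSG00000000120, chromosome 11, 95568818 to 95587735), had 23, 20 and 18 counts alone and 2 counts in each cocultured library (log2 fold change −3.34, adjusted p = 0.000184 by edgeR, SE 0.40; ratio of summed counts 10.7, 95% exact interval 4.64 to 30.3 for counting error only). Limma on log2(FPKM + 1) gave −0.48 for this weakly expressed gene.

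Fas and Tnfrsf1a, the death receptors best known for FasL and TNF, were not called. Fas had 273, 294 and 323 counts alone and 443, 385 and 316 counts in coculture, so the groups overlapped (log2 fold change 0.28, 95% interval −0.03 to 0.60, edgeR adjusted p = 0.148). Without cocultured replicate 3 it was 0.41 (adjusted p = 0.0325). Tnfrsf1a, present on nearly all cells, had 1738, 1715 and 1529 counts alone and 1673, 1744 and 1483 counts with Th17 cells (log2 fold change −0.10, 95% interval −0.27 to 0.08). The second TNF receptor, Tnfrsf1b, which signals through TRAF2, had 1153, 1264 and 1114 counts alone and 1590, 1473 and 1301 counts in coculture (log2 fold change 0.23, 95% interval 0.04 to 0.42, edgeR adjusted p = 0.0569). This value lay at the threshold. It passed without cocultured replicate 3 (0.31, adjusted p = 0.00777), with library size as the only scaling (0.29, adjusted p = 0.0192) and with limma on either log2 FPKM scale (0.28 and 0.29, adjusted p = 0.0233 for both). Within libraries, the FPKM ratio of Tnfrsf1b to Tnfrsf1a was 0.637, 0.708 and 0.700 alone and 0.913, 0.812 and 0.843 in coculture. An exact permutation test gave p = 0.10, the smallest possible, and 0.12 adjusted over 6 ratios. This ratio too was chosen after the values were seen. Among the 6 ratios, that of Tnfrsf12a to Tnfsf12 overlapped between groups, at 23.1 to 37.7 alone and 24.0 to 38.4 in coculture. Those of Tnfrsf22 to Tnfrsf23 and of Tnfrsf9 to Tnfsf9 also gave p = 0.10 by the exact permutation test.

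The TRAIL receptors without a death domain, a group of decoys found in mice, did not move together. Tnfrsf26, Tnfrsf22 and Tnfrsf23 lie in this order on chromosome 7, with gaps of 7.0 and 16.1 kb. Tnfrsf22 (ENSMUSG00000010751, 143634806 to 143649661) had 183, 155 and 121 counts alone and 329, 323 and 318 counts in coculture, rising from 12.2 ± 1.99 to 24.7 ± 0.619 CPM (log2 fold change 1.01, adjusted p = 0.000279 by edgeR, SE 0.13). Tnfrsf23 (ENSMUSG00000037613, 143665809 to 143685872), the more abundant of the pair, had 1431, 1520 and 1421 counts alone and 1202, 1129 and 1172 counts in coculture, falling from 117 ± 5.22 to 89.1 ± 0.352 CPM (log2 fold change −0.39, adjusted p = 0.000994 by edgeR, SE 0.06). Tnfrsf26, an orphan receptor, had 11, 21 and 18 counts alone and 5, 11 and 8 counts with Th17 cells and was not called (−1.12, edgeR adjusted p = 0.0661), though it passed without lone replicate 1 (−1.37, adjusted p = 0.0437). Of transcript stretches of 50 bases, 27.4% in Tnfrsf22 and 19.3% in Tnfrsf23 occur in another gene, chiefly in each other, and both overlap E230032D23Rik on the opposite strand, so how reads were divided between them is uncertain. The rise of Tnfrsf22 sat at the 2-fold limit, and leaving out lone replicate 3 or cocultured replicate 2 lowered it to 0.90 or 0.99 on the log2 scale. The FPKM ratio of the death receptor Tnfrsf10b to the abundant decoy Tnfrsf23 was 0.358, 0.385 and 0.384 alone and 1.09, 1.04 and 0.979 in coculture. An exact permutation test gave p = 0.10, the smallest possible, and 0.12 adjusted over 6 ratios. The ratio was chosen after the values were seen, from genes that had moved in opposite directions without overlap. Its p therefore adds nothing to the calls of the 2 genes. Tnfrsf11b, or osteoprotegerin, a secreted decoy for RANKL and TRAIL (ENSMUSG00000063727, chromosome 15, 54250619 to 54278484), had 1055, 1125 and 1066 counts alone and 1499, 1406 and 1426 counts in coculture. It rose from 87.0 ± 4.44 to 110.1 ± 1.51 CPM (log2 fold change 0.34, adjusted p = 0.00284 by edgeR, SE 0.06).

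Receptors that signal through TRAF adaptors showed modest increases in Relt, Tnfrsf9 and Cd40 and a decrease in Tnfrsf14. Relt, an orphan receptor (ENSMUSG00000008318, chromosome 7, 100845848 to 100863446), had 59, 68 and 63 counts alone and 111, 128 and 158 counts with Th17 cells (log2 fold change 0.99, adjusted p = 0.0021 by edgeR, SE 0.18). Tnfrsf9, or CD137, which costimulates T cells (ENSMUSG00000028965, chromosome 4, 150914562 to 150946102), had 501, 581 and 561 counts alone and 858, 733 and 917 counts in coculture (log2 fold change 0.53, adjusted p = 0.00329 by edgeR, SE 0.10). Its groups did not overlap while those of its ligand did, and it lies opposite a stretch of Camta1. Cd40, through which T cells activate antigen-presenting and stromal cells (ENSMUSG00000017652, chromosome 2, 165055627 to 165072948), had 118, 103 and 102 counts alone and 138, 164 and 161 counts in coculture (log2 fold change 0.45, adjusted p = 0.0288 by edgeR, SE 0.14). The call of Cd40 was lost under 7 of 15 alternatives, among them without lone replicates 1, 2 or 3 (adjusted p = 0.0541, 0.096 and 0.0775), without cocultured replicates 2 or 3 (0.0921 and 0.057) and with DESeq2 (0.0616). Tnfrsf14, or HVEM, a receptor of LIGHT and BTLA (ENSMUSG00000042333, chromosome 4, 154922210 to 154928563), had 68, 57 and 59 counts alone and 35, 43 and 35 counts with Th17 cells (log2 fold change −0.77, adjusted p = 0.0117 by edgeR, SE 0.19).

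The most abundant receptor, Tnfrsf12a, depended on 1 library. It had 1864, 1815 and 1731 counts alone and 1631, 1681 and 2541 counts in coculture, the highest value being that of cocultured replicate 3. Over all libraries its log2 fold change was 0.04 (95% interval −0.30 to 0.38, edgeR adjusted p = 0.865), and without that replicate it was −0.19 (adjusted p = 0.0396). Ltbr, the receptor of lymphotoxin beta and LIGHT, had 1310 to 1325 counts alone and 1352 to 1417 in coculture, with a log2 fold change of 0.01 (95% interval −0.14 to 0.15). Tnfrsf19, or TROY, had 34, 43 and 37 counts alone and 6, 22 and 27 counts with Th17 cells. These groups did not overlap, but the test did not pass (log2 fold change −1.12, edgeR adjusted p = 0.0658). It passed under 4 of 15 alternatives, among them the fits without cocultured replicate 3 (−1.50, adjusted p = 0.0364), with DESeq2 (−1.12, adjusted p = 0.0488) and with limma on log2(FPKM + 1) (−0.33, adjusted p = 0.0383). Tnfrsf11a, or RANK, had 12 to 30 counts in a library and was not called (−0.40, 95% interval −1.23 to 0.43).

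**Figure D4:**
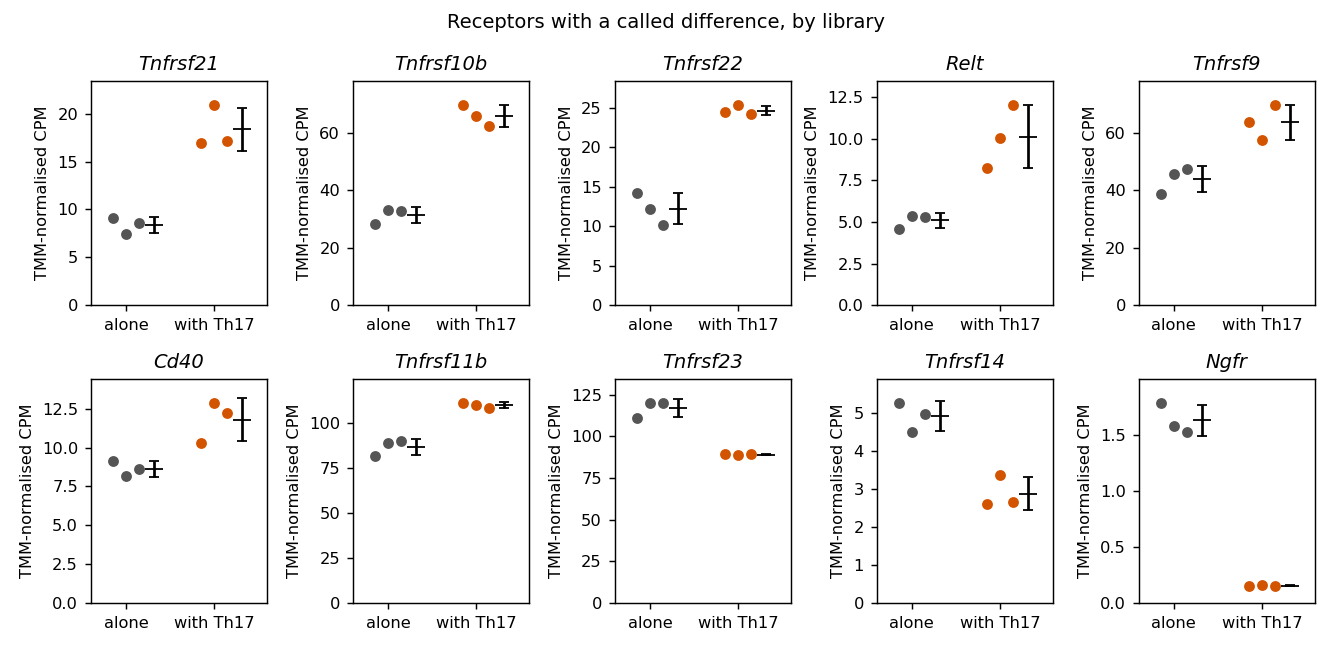
TMM-normalised CPM (vertical axes, each starting at 0) of the 10 receptors with a called difference, ordered from the highest to the lowest fold change, for 3 lone libraries (grey) and 3 cocultured libraries (orange), with the mean and SD beside the points. The groups are separate in each panel; Tnfrsf10b rises from 31.4 to 66.0 CPM and Tnfrsf23 falls from 117 to 89.1 CPM.

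Among the 9 receptors that were not tested, Tnfrsf13c and Tnfrsf17 had no count, Tnfrsf18 and Edar had 1 each, and Cd27 and Tnfrsf25 had 9 each in all. Tnfrsf13b held 11 counts. In a pair of T cell receptors of the family, picked after their counts were seen, low counts were nevertheless higher in every cocultured library than in any lone library. Tnfrsf4 (OX40) had 6, 6 and 1 counts alone and 11, 16 and 9 counts with Th17 cells, a ratio of summed counts of 2.63 (95% exact interval 1.36 to 5.41), and Tnfrsf8 (CD30) a ratio of 9.50 (95% exact interval 2.31 to 83.9), which cover counting error only. When no filter on low counts was used, Tnfrsf8 passed an adjusted p of 0.05 and Tnfrsf4 did not. The untested ligand of OX40, Tnfsf4, went the other way, with 1, 2 and 2 counts alone and 0 in each cocultured library.

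In 22 of the 46 members another member lay within 200 kb. These formed 13 neighbouring pairs, of which 5 had both genes tested and 2 had both called. In one of the latter Tnfsf8 and Tnfsf15 both fell, and in the other Tnfrsf22 rose and Tnfrsf23 fell. Singly, 57.1% of the tested members and 37.1% of all genes tested were called, and neighbouring pairs of other genes were not counted. On chromosome 17 Tnf fell while its neighbour Lta, 1.2 kb away, was not called, and on chromosome 6 Ltbr and Tnfrsf1a, 35.5 kb apart, were both not called.

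Of 23 adaptors and signalling proteins of these receptors, 22 were tested, and 4 rose, 5 fell and 13 were not called, with a median log2 fold change of 0.04. In all, 37.1% of the genes tested passed in either direction. Traf1, an adaptor that NF-kB induces, was the only one past 2-fold, with 18, 19 and 26 counts alone and 8, 4 and 6 counts in coculture (−1.87, edgeR adjusted p = 0.00422). The others, named after their values were seen, were Traf3, Traf4, Ripk3 and Cyld on the higher side and Traf2, Cflar, Rbck1 and Rnf31 on the lower side. Of 7 genes for shedding and processing, 2 rose (Rhbdf2 and the protease Furin), 2 fell (Adam17 and Sppl2a) and 3 were not called, with a median of −0.09. Rhbdf2, which carries the TNF-releasing protease ADAM17 to the surface, had 431, 513 and 476 counts alone and 1158, 1164 and 987 counts in coculture and was the one past 2-fold (1.15, edgeR adjusted p = 3.45e-05).

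Genes that TNF is known to induce in stromal cells split in direction. Of 15 genes, 7 rose, 6 fell and 2 were not called, with a median of 0.21. Among all genes tested, 17.1% were higher and 20% lower by the same rule. Past 2-fold, the adhesion molecules Icam1 (−3.77, edgeR adjusted p = 3.77e-07) and Vcam1 (−3.01, edgeR adjusted p = 8.56e-09) and the hyaluronan-binding protein Tnfaip6 (−1.63, edgeR adjusted p = 3.64e-05) fell. The neutrophil chemokine Cxcl1 (1.16, edgeR adjusted p = 0.000305) and Csf1, the macrophage growth factor (1.01, edgeR adjusted p = 1.98e-06), rose. Vcam1 had 12782, 12991 and 11879 counts alone and 1753, 1556 and 1618 counts in coculture, with a wide gap between the groups. Other cytokines induce several of these genes as well, so the list does not measure TNF signalling alone.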

How the data were processed

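RNA was sequenced on an Illumina NovaSeq after preparation with a VAHTS kit. Reads were filtered by the authors (Seqtk), mapped to mm10, which is GRCm38, in HISAT2 2.0.4 and counted per gene as fragments in StringTie 1.3.3b. The deposited table holds raw fragment counts and, per the file headers, FPKM for each gene and library. Counting by strand and the handling of multiply mapped fragments were not given in the sources used here. All rows name a gene. Positions were taken from the table and overlaps from GENCODE M21, in which all 46 members were found.

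Tests used the counts of all genes and edgeR 4.0.16 under R 4.3.3 (filterByExpr with a minimum count of 10, TMM, glmQLFit, glmQLFTest, Benjamini-Hochberg over 13088 genes). SE is the log2 fold change over the root of the F statistic, and 95% intervals use the fitted degrees of freedom. Deposited FPKM values, which carry no TMM factor, served for comparing genes, for ratios within libraries (6 ratios, chosen after values were seen) and for limma 3.58.1. CPM use TMM library sizes. Alternatives were DESeq2 1.42.0, other scalings and filters, limma on log2(FPKM + 1) or log2(FPKM + 0.1), each library left out and a replicate block.

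Members and lists were chosen with earlier results of these data known. Values were given for members with an adjusted p under 0.05 and their tested partners, and for other listed genes by size of change, at most 6 per list. The tests were first checked on simulated counts of 13088 genes, of which 200 were changed. There edgeR called 80% of the 2-fold and 98% of the 4-fold changes, and also 21 unchanged genes. Those 21 made up a larger share of the calls than the threshold of 0.05 implies. In the data 37.1% of genes passed, far more than were changed in the simulation, so these rates may not carry over. Python 3.11.15, pandas 2.3.3 and matplotlib 3.10.9 were used for sequences, tables and figures.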

Additional observations from a re-analysis of the deposited data

How the results depend on the processing

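Of the 16 called members, 14 to 16 were called under every alternative except the requirement of 10 counts in every library, which removed Tnf, Tnfsf10 and Ngfr from testing and left 5 lower members, 3 of them past 2-fold. With limma on log2(FPKM + 1), whose pseudocount shrinks low genes, 1 member was higher and 3 lower past 2-fold, and 3 adaptors were lower. When each library was left out, 6 to 9 members were higher and 8 to 10 lower, of which 2 to 4 and 6 to 7 passed 2-fold. The log2 fold change of Tnfrsf12a then ranged from −0.19, without cocultured replicate 3, to 0.17, without cocultured replicate 1, against 0.04 over all libraries. Cd40 and Eda lost their calls under 7 and 6 of 15 alternatives. Same-numbered libraries did not deviate together (correlations of 0.02, −0.03 and −0.0036), and not every library correlated best with its own number. The replicate block called 6 members higher and 9 lower, without Cd40 (0.44) and Eda (0.72) and with Tnfrsf19 (−1.20). Among all genes, 53.8% of calls were decreases under TMM and 43.9% with library size only, where the median of all genes shifted to 0.07. At this depth, genes that did not reach about 10 counts in at least 3 libraries were not tested.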
